A study of Mus musculus with 3 samples.

Results

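The 10 genes described here are Toll-like receptors and the proteins that work with them: Tlr1, Tlr2, Tlr3, Tlr4, Tlr7, Tlr9 and Tlr13, the co-receptor Cd14, the co-receptor partner Ly86 and the adaptor Myd88. They were taken by symbol from the 27998 genes of the deposited count matrix. Single-cell RNA sequencing (10x Genomics Chromium, 3′ v2 chemistry) had been done on Cd11b-sorted cells from the brains, less the cerebellum, of female C57BL6J mice aged 5 months. Cd11b, encoded by Itgam, is a surface integrin of microglia, of other myeloid cells and of part of the NK cells. The labels name 3 groups of 1 library each. Ctrl was 1 untreated mouse. D0 was a pool of 2 mice taken after 14 days on chow with PLX5622 at 1200 mg/kg, and D2 was 1 mouse given control chow for 2 days after the same 14 days. PLX5622 blocks Csf1r, the receptor whose signal microglia need to survive.

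Toll-like receptors recognise microbial molecules and set off cytokine production. Tlr1, Tlr2 and Tlr4 sit at the cell surface and detect lipoproteins and lipopolysaccharide, while Tlr3, Tlr7, Tlr9 and Tlr13 sit in endosomes and detect nucleic acids. Cd14 passes lipopolysaccharide to Tlr4, Ly86 is the secreted partner of the receptor-like protein Cd180, and Myd88 relays the signal of most of these receptors except Tlr3, which uses Ticam1. In the brain, microglia are known as the main cells that carry this pathway.

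The matrix held 2149 cell barcodes, each ending in a number from 1 to 3, and nothing in the labels or files says which sample a number stands for. They are called library 1 (1263 barcodes, 6410990 UMIs), library 2 (599 barcodes, 4022293 UMIs) and library 3 (287 barcodes, 2831118 UMIs). A UMI, or unique molecular identifier, marks 1 captured transcript molecule. The median depth per cell was 3662, 6188 and 8172 UMIs, and 0 barcodes were shared between libraries. No study groups could be compared, the pooled matrix counts as 1 sample, and no test over animals exists. Levels are UMIs per 1000000 of a class (CPM) with exact Poisson 95% intervals, and ratios of levels have exact conditional binomial 95% intervals. All intervals cover counting error only, not the spread between cells of a class or between animals.

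The 2135 cells that passed the filters fell into 12 clusters, named from marker lists. The 10 genes and 43 other genes of the pathway were kept out of the clustering and the naming. Microglia-like cells (1137) were 84.9% of the cells used of library 1, with 1071 cells, and 10.9% of those of library 2, with 65 cells, and library 3 held 1. All 10 microglia markers (among them P2ry12, Tmem119 and Sall1) passed in both of their clusters, but genes of stress and cytokines (Ccl3, Ccl4, Il1a, Egr1) led the second of these. The 83 border-associated macrophage-like cells all came from library 1, and their cluster passed all 10 microglia markers as well, so the separation of this class from microglia is not sharp. Library 2 and library 3 held most of the dendritic cell-like (332), neutrophil-like (158), monocyte-like (136), NK-like (125), non-classical monocyte-like (67) and migratory dendritic cell-like (57) cells. In dendritic cell-like cells of library 1 the microglia markers summed to 4080 CPM, above the 2544 CPM of the dendritic cell markers. The microglia sums were 602 and 683 CPM in those of library 2 and 3. In neutrophil-like cells of library 2 the microglia markers summed to 2097 CPM, with a cell median of 301 CPM and a highest cell of 19796 CPM. The dendritic cell markers summed to 2022 CPM in them. Their neutrophil markers ranged per cell from 232 to 553256 CPM. In neutrophil-like cells of library 3 the microglia sum was 264 CPM and the dendritic cell sum 1642 CPM. The part of RNA or cells of other classes in the levels of these 2 classes was not tested. Itgam, the gene of the sort, measured 259 CPM in microglia-like cells of library 1, 61.2 CPM in NK-like cells of library 2 and 0 in endothelial-like cells of library 2. Values by class are given for classes with at least 20 cells in a library, and the class and the library can hardly be told apart for microglia-like cells.

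For reference, the bases just upstream of an annotated start are shown for 4 members with unlike patterns below: Ly86, whose own levels were highest in microglia-like cells, Tlr2, which differed between libraries, Tlr13, an endosomal receptor, and Tlr1, which was sparse in every class. They come from RefSeq (GRCm38.p6), which had an entry for 7 of the 10 genes, read on the gene's strand from 5′ to 3′, and only bases outside annotated exons are printed. Capitals mark GAGGAA, a core bound by PU.1, a transcription factor of myeloid cells, searched on both strands. The sequences are from chr13:37345095-37345207 (plus strand) for Ly86, chr3:83841768-83841858 (minus strand) for Tlr2, chrX:106143025-106143203 (plus strand) for Tlr13 and chr5:64933564-64933808 (minus strand) for Tlr1.
Ly86: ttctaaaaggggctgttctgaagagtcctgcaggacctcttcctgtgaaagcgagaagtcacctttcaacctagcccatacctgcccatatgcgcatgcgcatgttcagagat
Tlr2: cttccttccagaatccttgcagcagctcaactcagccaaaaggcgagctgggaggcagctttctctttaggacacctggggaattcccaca
Tlr13: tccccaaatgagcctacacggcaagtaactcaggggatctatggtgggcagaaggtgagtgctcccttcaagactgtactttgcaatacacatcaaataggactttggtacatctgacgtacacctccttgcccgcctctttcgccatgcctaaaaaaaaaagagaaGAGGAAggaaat
Tlr1: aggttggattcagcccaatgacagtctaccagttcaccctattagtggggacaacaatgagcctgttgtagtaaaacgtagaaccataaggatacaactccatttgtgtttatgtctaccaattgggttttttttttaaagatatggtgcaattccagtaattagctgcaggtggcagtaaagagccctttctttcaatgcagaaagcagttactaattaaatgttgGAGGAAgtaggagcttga
The windows of 300 bases around the starts of Tlr9 and Tlr13 and around 1 of the 2 listed starts of Tlr1, the one shown, held GAGGAA, as did 28.3% of all 32817 such windows, and those of Ly86, Tlr2, Tlr3 and Myd88 did not. These matches describe letters and not binding.

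The surface receptor Tlr2 was spread over nearly all myeloid classes. Tlr2 (chromosome 3, 83836272 to 83841767, minus strand, GENCODE M21 on GRCm38) had 1649 UMIs in all cells. In microglia-like cells it measured 108 CPM (99.2 to 118) in library 1 against 252 CPM (200 to 315) in library 2. In monocyte-like cells it measured 129 CPM (87 to 184) in library 2 against 224 CPM (198 to 253) in library 3. In library 2, the one library with at least 20 cells of both classes, the summed level was thus higher in microglia-like cells. As a mean of per-cell CPM it was 170 in microglia-like and 154 in monocyte-like cells of library 2. After thinning every cell to 2000 UMIs, Tlr2 was seen in 22.0% (12.3 to 34.7) and 18.2% (8.19 to 32.7) of them, which overlapped. Monocyte-like cells of library 3 lay above microglia-like cells of library 1. Dendritic cell-like cells had 206 CPM (166 to 253), 121 CPM (105 to 138) and 129 CPM (105 to 158) of Tlr2 in library 1, 2 and 3. Neutrophil-like cells had 136 CPM in library 2 against 80.5 CPM in library 3, and border-associated macrophage-like cells of library 1 had 143 CPM (120 to 169). The order from library 2 microglia-like cells down to library 3 neutrophil-like cells had overlapping intervals at each step between neighbours. Below them lay non-classical monocyte-like cells (48.8 CPM from 3 UMIs in library 2 against 38.5 CPM, 14.1 to 83.7, in library 3) and migratory dendritic cell-like cells (34.5 CPM, 18.9 to 57.9). Endothelial-like cells of library 2 had 47.2 CPM from 4 UMIs. NK-like cells had 0 Tlr2 UMIs in library 2 and library 3, which allows up to 11.5 and 27.1 CPM.

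Tlr1, which pairs with Tlr2 in sensing triacylated lipopeptides, was sparse, with 135 UMIs. It lies on chromosome 5, and it is uncertain how far its reads were separated from those of the closely similar Tlr6. Microglia-like cells had 16.2 CPM (12.8 to 20.3) in library 1 against 9.59 CPM (1.98 to 28) in library 2, and monocyte-like cells had 17.2 CPM in library 2 against 12 CPM in library 3. These 4 intervals overlapped. Dendritic cell-like cells had 4.48, 6.61 and 2.69 CPM of Tlr1, and 0 UMIs were found in migratory dendritic cell-like cells and in NK-like cells of library 2 and 3.

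Tlr4, the lipopolysaccharide receptor on chromosome 4, had 153 UMIs. Its levels were 28.2 CPM (18.7 to 40.8) in border-associated macrophage-like cells and 17.7 CPM (14.1 to 21.9) in microglia-like cells of library 1, with overlapping intervals. Microglia-like cells of library 2 had 9.59 CPM from 3 UMIs, and monocyte-like cells had 4.3 CPM from 1 UMI in library 2 against 11.1 CPM (5.92 to 19) in library 3. In dendritic cell-like cells Tlr4 was 8.97 CPM (2.44 to 23) in library 1, 2.2 CPM (0.601 to 5.65) in library 2 and, in library 3, 6.72 CPM (2.18 to 15.7), and within library 1 and within library 2 the intervals of dendritic cell-like and microglia-like cells overlapped.

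**Figure D1:**
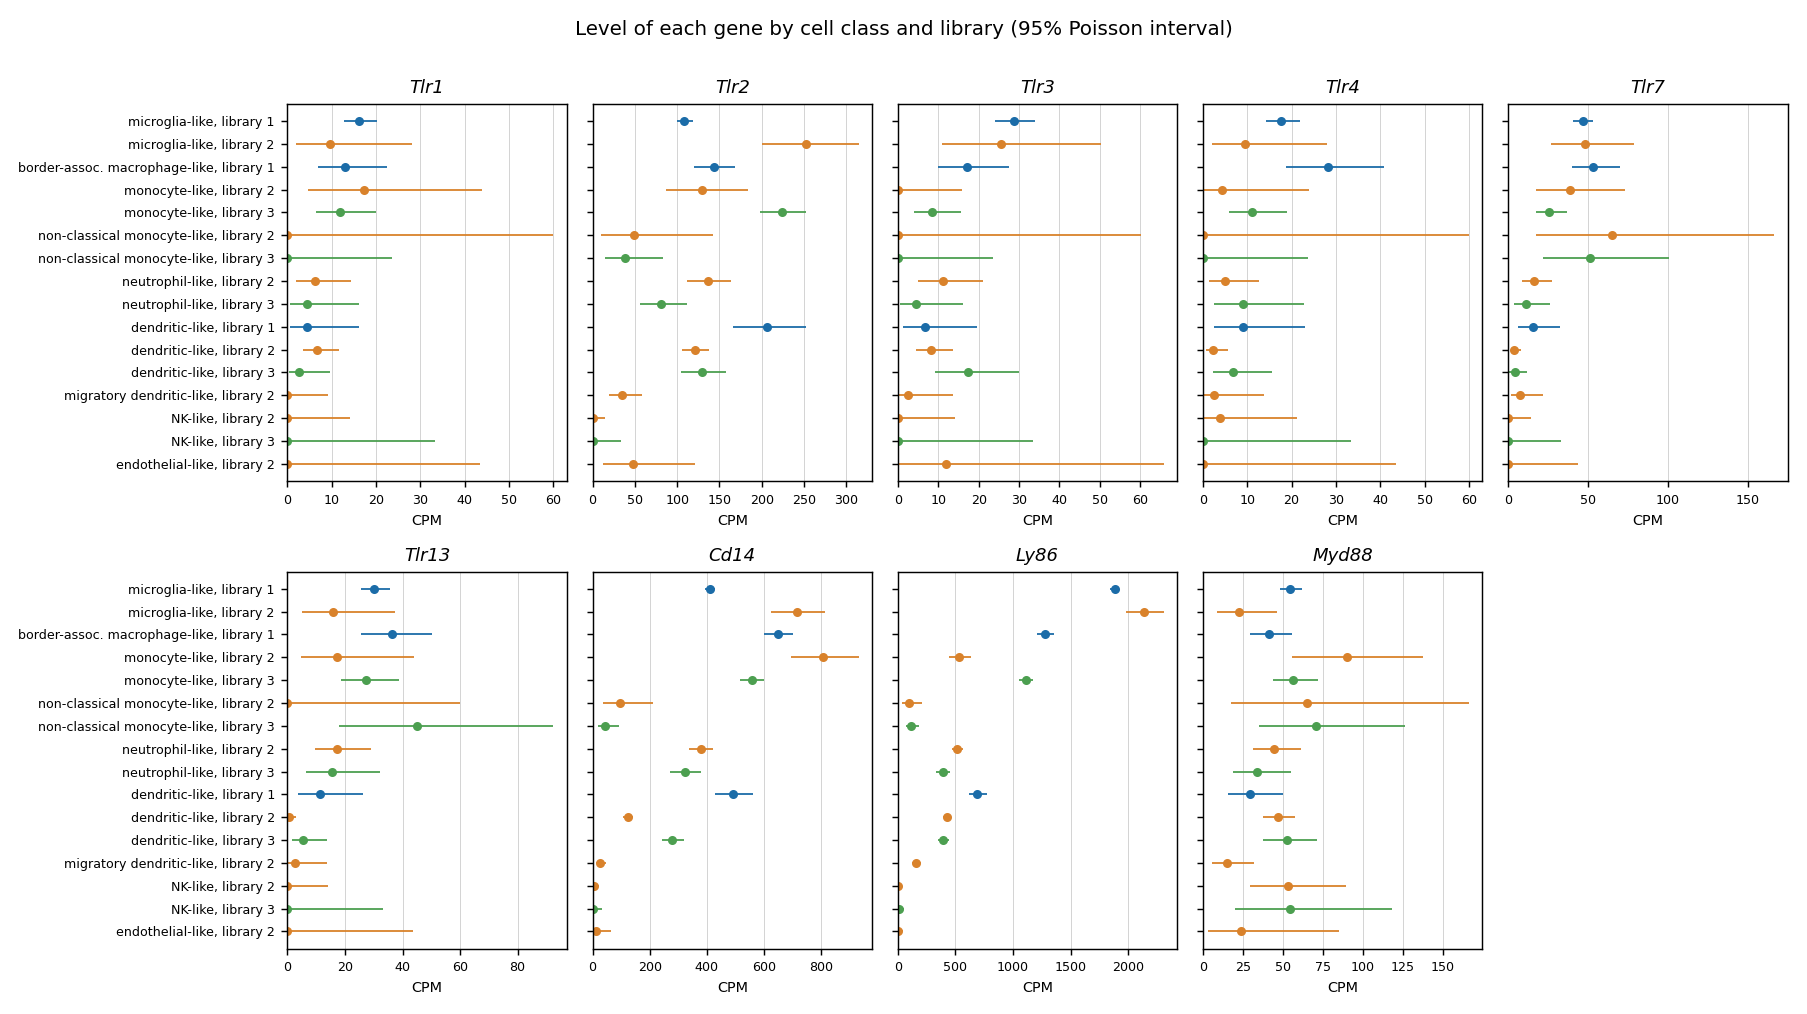
Levels of 9 of the 10 genes in each cell class and library with at least 20 cells, in UMIs per 1000000 (CPM), with Tlr9 left out for its 7 UMIs. Points are CPM and bars exact Poisson 95% intervals, and microglia-like cells reach 1881 CPM of Ly86 in library 1 against 2141 CPM in library 2.

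Of the endosomal receptors, Tlr7 and Tlr13 measured lower in dendritic cell-like cells than in microglia-like and border-associated macrophage-like cells. Other classes were low as well, among them neutrophil-like cells for Tlr7. Tlr7 (chromosome X, 167304929 to 167330558), a sensor of single-stranded RNA, had 383 UMIs. Its level in microglia-like cells was 46.8 CPM (40.9 to 53.4) in library 1 against 47.9 CPM (26.8 to 79.1) in library 2. Border-associated macrophage-like cells had 53.4 CPM (40 to 69.8). The non-classical monocyte-like cells had 65.1 CPM from 4 UMIs in library 2 against 51.3 CPM (22.1 to 101) in library 3, and the monocyte-like cells 38.7 CPM (17.7 to 73.4) in library 2 against 25.6 CPM (17.3 to 36.6) in library 3. All these intervals overlapped their neighbours, and that of monocyte-like cells of library 3 lay below that of microglia-like cells of library 1. In dendritic cell-like cells Tlr7 measured 15.7 CPM (6.31 to 32.3) in library 1, 3.86 CPM (1.55 to 7.95) in library 2 against 4.03 CPM (0.832 to 11.8) in library 3. Within library 1, where both classes were measured, the interval of dendritic cell-like cells lay wholly below that of microglia-like cells, and so it did within library 2. Neutrophil-like cells had 16.1 CPM (8.56 to 27.5) of Tlr7 in library 2 against 11.2 CPM (3.63 to 26.1) in library 3. Migratory dendritic cell-like cells of library 2 had 7.4 CPM from 3 UMIs. NK-like cells had 0 UMIs in library 2 and 3, which allows up to 11.5 and 27.1 CPM.

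Tlr13 (chromosome X, 106143204 to 106160493), which detects bacterial ribosomal RNA in mice, had 265 UMIs. It measured 30.2 CPM (25.4 to 35.5) in microglia-like cells of library 1 and 16 CPM (5.19 to 37.3) in those of library 2. Border-associated macrophage-like cells had 36.3 CPM (25.4 to 50.2). Monocyte-like cells had 17.2 CPM from 4 UMIs in library 2 against 27.3 CPM (18.7 to 38.6) in library 3, and non-classical monocyte-like cells of library 3 had 44.9 CPM (18 to 92.5). Dendritic cell-like cells of library 2 had 1 UMI of Tlr13 among 205 cells, or 0.551 CPM (0.014 to 3.07), those of library 1 had 11.2 CPM (3.64 to 26.2), and those of library 3 had 5.38 CPM (1.47 to 13.8). The interval of dendritic cell-like cells lay below that of microglia-like cells in library 2 and overlapped with it in library 1. Neutrophil-like cells had 17.3 CPM (9.47 to 29.1) of Tlr13 in library 2, level with microglia-like cells of that library, and 15.7 CPM (6.3 to 32.3) in library 3. Migratory dendritic cell-like cells of library 2 had 2.47 CPM from 1 UMI, and NK-like cells of library 2 and 3 had 0 UMIs.

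Tlr3, the sensor of double-stranded RNA, lies on chromosome 8 (45395665 to 45411080, minus strand) and is overlapped on the other strand by Gm45542. Of its 218 UMIs, microglia-like cells of library 1 held 136, or 28.7 CPM (24.1 to 33.9). Those of library 2 had 25.6 CPM (11 to 50.4), and border-associated macrophage-like cells 17.1 CPM (9.98 to 27.4). Monocyte-like cells had 0 UMIs of Tlr3 in library 2, which allows up to 12.9 CPM, and 8.55 CPM (4.1 to 15.7) in library 3. Dendritic cell-like cells had 6.72, 8.27 and 17.5 CPM in library 1, 2 and 3, and non-classical monocyte-like cells had 0 UMIs. Tlr9, the receptor for unmethylated CpG DNA on chromosome 9, was close to absent from the counts: 7 UMIs in all, 5 in library 1, 2 in library 2 and 0 in library 3, which allows up to 1.10 CPM over that library. At this depth no class could be set apart by Tlr9.

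Cd14 was high in monocyte-like and macrophage classes and near 0 in NK-like cells. Cd14 (chromosome 18, 36725067 to 36726798, minus strand) was found in 4893 UMIs. It measured 808 CPM (697 to 932) in monocyte-like cells of library 2 and 557 CPM (515 to 602) in those of library 3. Microglia-like cells had 411 CPM (393 to 430) in library 1 against 716 CPM (625 to 816) in library 2, and border-associated macrophage-like cells 651 CPM (602 to 703). So Cd14 in microglia-like cells of library 2 overlapped with that of monocyte-like cells of the same library, while microglia-like cells of library 1 lay below both monocyte-like values. Dendritic cell-like cells had 493 CPM (430 to 563), 123 CPM (108 to 141) and 280 CPM (243 to 320) in library 1, 2 and 3, with no overlap among the 3 counting intervals. However, 1 cell held 51 of the 208 Cd14 UMIs of library 3. After thinning to 2000 UMIs, Cd14 was seen in 17.1% (12.2 to 22.9) and 21.4% (12.5 to 32.9) of these cells in library 2 and 3, which overlapped. The thinned share in library 1 was 51.8% (38.0 to 65.3). Neutrophil-like cells had 379 CPM in library 2 against 322 CPM in library 3. Non-classical monocyte-like cells had 97.7 CPM (35.8 to 213) and 44.9 CPM (18 to 92.5), under the other monocyte-like cells of the same libraries. NK-like cells had 1 UMI in library 2 and 0 in library 3.

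Ly86 (chromosome 13, 37345208 to 37419036, plus strand) had 14467 UMIs, and microglia-like cells came first in its order. They had 1881 CPM (1843 to 1921) in library 1 against 2141 CPM (1982 to 2309) in library 2. Border-associated macrophage-like cells followed with 1280 CPM (1211 to 1353), then monocyte-like cells of library 3 with 1114 CPM (1055 to 1177). The intervals of these first steps did not overlap. Monocyte-like cells of library 2 had 533 CPM (443 to 635), which overlapped with neutrophil-like cells of library 2 at 518 CPM (470 to 570). Dendritic cell-like cells had 690, 424 and 397 CPM, migratory dendritic cell-like cells 155 CPM (119 to 199), and non-classical monocyte-like cells 97.7 and 115 CPM. NK-like cells had 1 UMI in library 2 and 1 UMI in library 3, but the 13 NK-like cells of library 1 had 12 UMIs of Ly86, or 252 CPM (130 to 440). The mean of their per-cell CPM was lower, at 132. Microglia-like cells were most of library 1, and whether their RNA had a part was not tested.

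Myd88 was also found in cells with next to no receptor RNA. It lies on chromosome 9 (119335934 to 119341411), where Slc22a14 on the same strand and Acaa1a on the other overlap it. Its 630 UMIs gave 54.6 CPM (48.2 to 61.7) in microglia-like cells of library 1 and 22.4 CPM (8.99 to 46.1) in those of library 2. Monocyte-like cells had 90.3 CPM (55.9 to 138) in library 2 against 56.4 CPM (43.6 to 71.8) in library 3. NK-like cells, in which the receptors were at or near 0, had 53.5 CPM (29.3 to 89.8) in library 2 against 54.2 CPM (19.9 to 118) in library 3. Migratory dendritic cell-like cells of library 2 had 14.8 CPM (5.43 to 32.2).

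Shares of cells with a UMI were compared after thinning every cell to 2000 UMIs, which left out 106 shallower cells. At least 1 of the 7 receptors was seen in 35.7% of microglia-like cells of library 1 (358 of 1004) and in 35.6% of those of library 2 (21 of 59). The share was 32.5% in border-associated macrophage-like cells, 29.5% and 34.9% in monocyte-like cells of library 2 and 3, 41.9% and 22.7% in neutrophil-like cells of library 2 and 3, and 25% in non-classical monocyte-like cells of library 3. In dendritic cell-like cells it was 39.3%, 21.5% and 22.9% in library 1, 2 and 3, those of library 1 with the higher microglia marker sum given above. In migratory dendritic cell-like cells it was 7.69%. NK-like cells, which serve here as the class with the least receptor RNA, showed a receptor in 1 of 67 cells of library 2 (1.49%) and 0 of 31 of library 3, which allows up to 9.68%. Their median depth was 3092 and 3002 UMIs before thinning, against 3370 and 3761 in microglia-like cells of library 1 and 2. Unthinned, 58.4% of the microglia-like cells of library 1 had a receptor UMI.

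For the single genes the thinned shares in microglia-like cells of library 1 were 18.1% for Tlr2, 8.07% for Tlr7, 5.58% for Tlr13, 5.28% for Tlr3, 3.59% for Tlr4 and 2.49% for Tlr1. In NK-like cells these genes were seen in 0 of 67 cells of library 2, which allows up to 4.48%, except Tlr4 with 1 of 67, and in 0 of 31 cells of library 3, which allows up to 9.68%. Only the share of Tlr2 lay above both limits. Ly86 was seen in 96.3% of microglia-like cells of library 1 and 96.6% of those of library 2, and in 1 of 67 NK-like cells of library 2. Cd14 was seen in 54% and 49.2% of the microglia-like cells of these libraries. Myd88 was seen in 10.6% of microglia-like cells of library 1 and in 10.4% of NK-like cells of library 2.

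**Figure D2:**
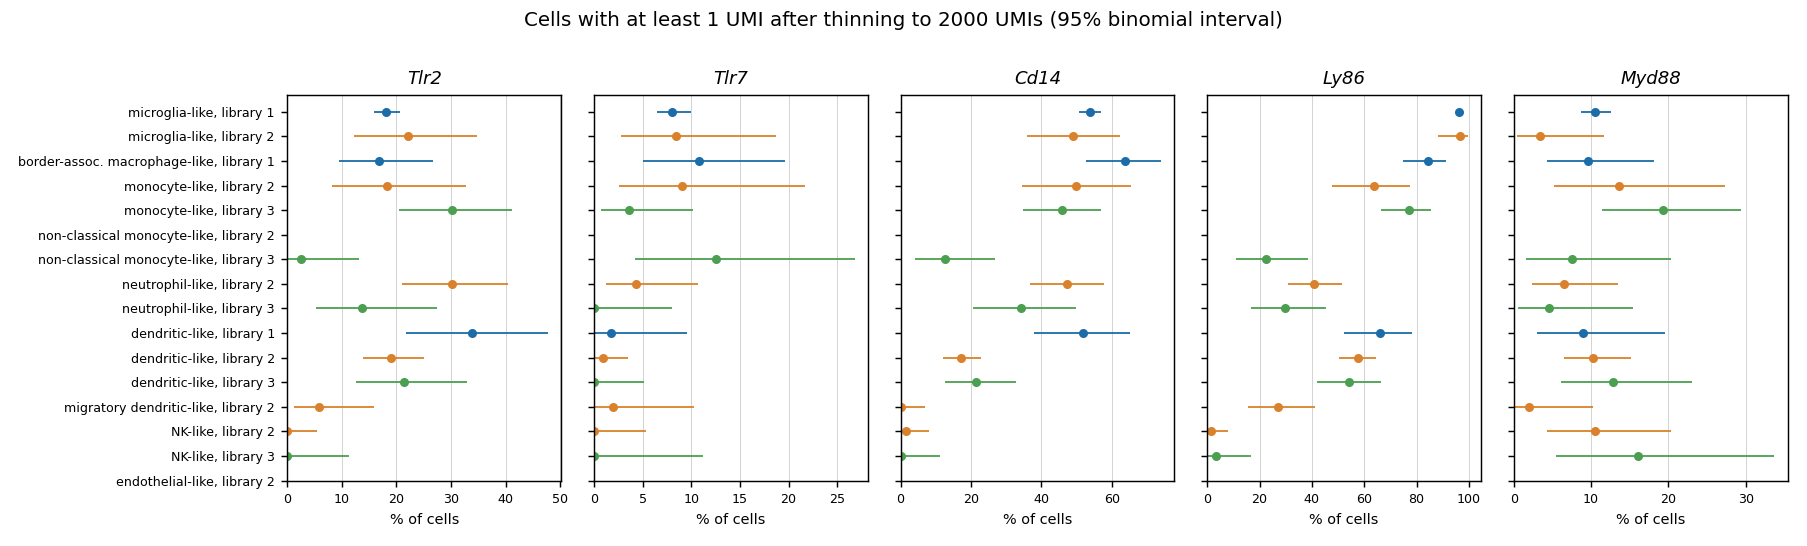
Share of cells with at least 1 UMI of each gene after thinning to 2000 UMIs, in percent, by class and library with at least 20 thinned cells. Bars are exact binomial 95% intervals. Ly86 is seen in 96.3% of microglia-like cells of library 1 and in 1 of 67 NK-like cells of library 2.

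Pairs of partners were counted in single cells after the same thinning. In microglia-like cells of library 1, 8 of the 25 cells with Tlr1 also had Tlr2, which 182 of 1004 cells had. Of the 36 cells with Tlr4, 19 had Cd14, which 542 of all 1004 had, and 5 had Ly96, which 146 of 1004 had and which encodes the secreted subunit that Tlr4 needs for lipopolysaccharide. Cd14 was seen in 103 of the 182 cells with Tlr2, close to its share in all cells. Among border-associated macrophage-like cells it was seen in 14 of 14 cells with Tlr2 and in 53 of all 83. In monocyte-like cells of library 3 it was seen in 15 of 25 cells with Tlr2 and in 38 of 83, and in dendritic cell-like cells of library 2 in 11 of 39 and in 35 of 205. Of 256 microglia-like cells with Cd180, 247 also had Ly86, which 967 of 1004 had. Unc93b1, the chaperone that carries endosomal receptors out of the endoplasmic reticulum, was seen in 74 of the 81 cells with Tlr7, and in 931 of all 1004. These counts are a description, since a UMI count of 0 at this depth does not show that a cell lacks the transcript.

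The first comparison set microglia-like cells (1137) against monocyte-like cells (136) over all libraries. Tlr3 was the member higher by at least 2-fold in microglia-like cells, at 28.4 against 7.57 CPM, or 3.76-fold (2.04 to 7.70). The other 8 of the 9 members with at least 50 UMIs over both classes stayed within 2-fold, although the interval excluded equality for several. Ly86 was 1.88-fold (1.78 to 1.99) higher in microglia-like cells, Tlr4 1.78-fold (1.01 to 3.40) and Tlr7 1.66-fold (1.19 to 2.37). Tlr2 was 1.86-fold (1.62 to 2.13) lower and Cd14 1.46-fold (1.35 to 1.58) lower. The 9 monocyte-like cells of library 1 had the highest levels of both among monocyte-like cells, 517 CPM of Tlr2 (338 to 757) and 1431 CPM of Cd14 (1120 to 1803). For Tlr1 (1.28-fold, 0.758 to 2.26), Tlr13 (1.12-fold, 0.778 to 1.64) and Myd88 (0.848-fold, 0.666 to 1.09) the intervals included equality.

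Of all 7899 genes with that many UMIs, 37.1% differed by at least 2-fold, 24.4% higher and 12.7% lower, so the members' 1 of 9 was a share below the background. The median log2 ratio was 0.35 over the members and 0.23 over all genes. This comparison rests on different libraries. Within library 2 alone, Tlr2 was higher in microglia-like cells at 1.96-fold (1.27 to 3.09), Cd14 was 0.886-fold (0.726 to 1.08) and Ly86 4.02-fold (3.31 to 4.91). For Tlr2 the clusters differed: the 27 stress and cytokine gene-led cells had 384 CPM and the other 38 microglia-like cells 55.8 CPM (22.4 to 115). The latter measured below the 129 CPM (87 to 184) of monocyte-like cells of library 2, with overlapping intervals. There 1 of 3 members passed 2-fold, against 40.7% of 1413 genes (17.7% higher, 23.0% lower). The pooled count was 2 without library 1 (Ly86 higher, Myd88 lower), 2 without library 2 (Tlr2 lower, Tlr3 higher) and 4 without library 3 (Tlr3, Tlr4 and Ly86 higher, Cd14 lower). Without library 1 the log2 ratio of Tlr4 turned from 0.83 to -0.10 and that of Cd14 from -0.55 to 0.22.

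Markers of the other class were present on both sides. The microglia list summed to 739 CPM in monocyte-like cells of library 2, with Sall1, P2ry13 and Olfml3 at 0, and to 3895 CPM in those of library 3, with 10 of 10 markers seen, against 34654 CPM in microglia-like cells of library 1 and 18802 CPM in those of library 2. The monocyte list summed to 13.7 CPM in microglia-like cells of library 1, with Fn1, Chil3 and F10 at 0, and to 47.9 CPM in those of library 2. The neutrophil list summed to 2489 and 2460 CPM in monocyte-like cells of library 2 and 3, against 212 and 840 CPM in microglia-like cells of library 1 and 2. Per cell, the microglia list in monocyte-like cells of library 3 ranged from 0 to 22823 CPM, with a median of 523 CPM. Its highest cell lay above the median of microglia-like cells of library 2, at 19468 CPM. The monocyte list ranged from 0 to 23424 CPM in the same monocyte-like cells, so the class is not uniform. The part of these markers in the ratios was not tested.

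**Figure D3:**
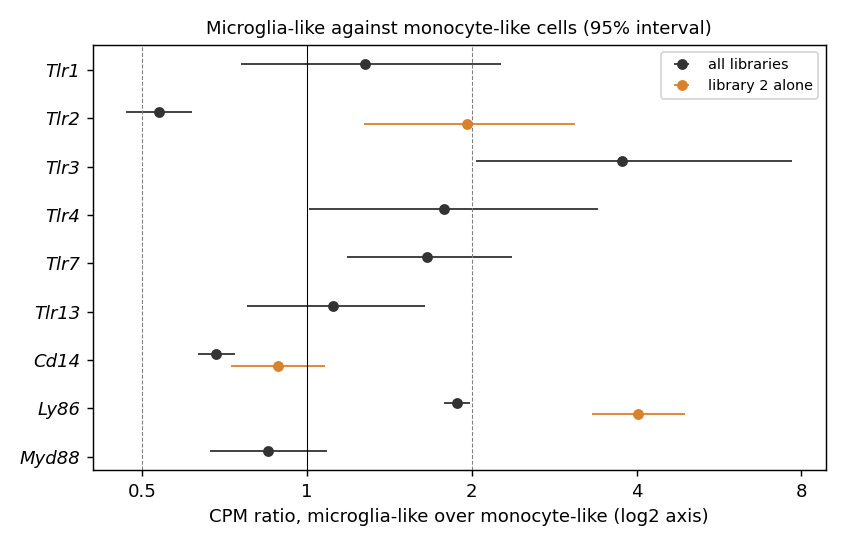
Ratio of levels of the 9 members with at least 50 UMIs, microglia-like over monocyte-like cells, on a log axis, for all libraries and for the 3 members that reached that number in library 2 alone. Bars are exact 95% intervals, and Tlr2 lies below 1 in the pooled cells and above 1 in library 2.

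Among the 43 other pathway genes, 32 had enough UMIs for the same comparison, and 12 were at least 2-fold higher and 2 lower in microglia-like cells. The receptor Tlr12 had 75 UMIs (14.8 CPM) in microglia-like cells and 0 in monocyte-like cells, at least 7.18-fold higher against a floor of 3 counts over the group. The bridging adaptor Tirap was 3.32-fold (1.68 to 7.46) higher, Unc93b1 3.24-fold (2.98 to 3.53) at 1325 against 409 CPM, and the kinase-binding protein Tab1 3.01-fold (1.31 to 8.52). The 2 lower genes were the scavenger receptor Cd36 (1.38 against 56.4 CPM) and the interferon regulatory factor Irf7 (5.93 against 168 CPM). Cd180, the partner of Ly86, was 146 against 64.7 CPM, and the Tlr4 subunit Ly96 was 83.9 against 37.9 CPM. In library 2 alone Cd180 was 3.39-fold (1.62 to 7.93) and Nfkbia, an inhibitor of NF-kappaB, 2.45-fold higher, and Irf7 (19.2 against 279 CPM) and the kinase Ikbkb (44.7 against 224 CPM) were lower.

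The second comparison set the microglia-like cells of library 2 (65) against those of library 1 (1071). Tlr2 was 2.33-fold (1.81 to 2.96) higher in library 2 and Myd88 2.44-fold (1.17 to 6.13) lower, the latter on 7 UMIs. Thus 1 of 9 members was at least 2-fold higher and 1 lower, where 2.43% of 7163 genes were higher and 18.6% lower, 21.0% in all. Cd14 was 1.74-fold (1.51 to 2.00) and Ly86 1.14-fold (1.05 to 1.23) higher in library 2. Tlr7 (1.02-fold, 0.563 to 1.73) and Tlr3 (0.891-fold, 0.377 to 1.81) had intervals around equality, as had Tlr1 (0.59-fold), Tlr4 (0.541-fold) and Tlr13 (0.53-fold), each on 3 to 5 UMIs in library 2. The median log2 ratio of the members was -0.17, against -0.35 over all genes.

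Within library 2 both genes were higher in 1 of the 2 microglia-like clusters. In the stress and cytokine gene-led cluster of library 2 (27 cells) Tlr2 measured 384 CPM (300 to 484), and in its other microglia-like cells (38) 55.8 CPM (22.4 to 115). In library 1 the same clusters had 118 CPM (105 to 133) and 98.7 CPM (86.5 to 112). Cd14 measured 955 CPM (820 to 1105) and 359 CPM (262 to 480.1) in these sets of library 2, and 399 CPM (374 to 425) and 423 CPM (397 to 450) in those of library 1. Without the stress and cytokine gene-led cluster the log2 ratio of Tlr2 in library 2 over library 1 changed from 1.22 to -0.82, and that of Cd14 from 0.80 to -0.24. Of 224 Cd14 UMIs in microglia-like cells of library 2, 1 cell held 43, and 3 cells held 50% of them, whereas 194 of 1071 cells were needed for that in library 1. Of 79 Tlr2 UMIs in library 2, 25 of 65 cells held all, 5 held 50%, and 1 cell held 13 (16.5%). In library 1, 347 of 1071 cells held all 514 and 93 held 50%, but no cell held more than 10 (1.95%). The cells that held 50% of the Tlr2 UMIs were a similar share in both libraries, at unlike mean levels. For Cd14 they were a smaller share in library 2 (3 of 65) than in library 1 (194 of 1071).

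Shares of cells differed less than levels. Thinned, Tlr2 was seen in 9 of 27 stress and cytokine gene-led cells of library 2 (33.3%), in 4 of 32 other ones (12.5%) and in 18.1% of library 1, and Cd14 in 10 of 27 (37%) and 19 of 32 (59.4%). Cd14 thus had the higher CPM and the lower share in the stress and cytokine gene-led cells of library 2, and no order was read from the shares.

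Neutrophil markers also differed between microglia-like cells of library 2 and library 1, while their sums were similar in the clusters of library 2. The neutrophil list summed to 840 CPM in microglia-like cells of library 2 and 212 CPM in those of library 1, with Ly6g and Mmp8 at 0 in both and 8 of 10 markers seen. Per cell it ranged from 0 to 6988 CPM in library 2. The stress and cytokine gene-led and the other cells of library 2 had similar sums (864 and 805 CPM) and cell medians (691 and 806 CPM). Their highest cells were unlike, at 6988 CPM in the stress and cytokine gene-led and 2265 CPM in the other cells. Of the 10 markers, 8 were seen in the former and 6 in the latter. Without the cells that had UMIs of 3 or more neutrophil or monocyte markers, 35 cells remained in library 2 and 1061 in library 1, and the log2 ratios were 0.29 for Tlr2 and -0.36 for Cd14. The part of neutrophil RNA in these values was not tested.

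**Figure D4:**
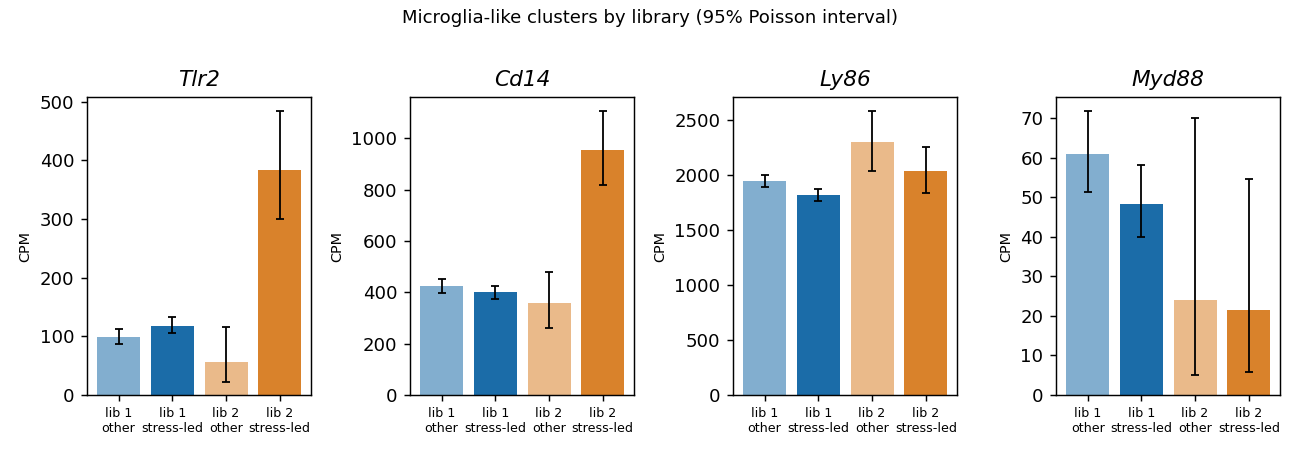
Levels of Tlr2, Cd14, Ly86 and Myd88 in the stress and cytokine gene-led cluster and in the other microglia-like cells of library 1 and library 2, in CPM with exact Poisson 95% intervals. Tlr2 reaches 384 CPM in the first cluster of library 2 and lies between 55.8 and 118 CPM in the other 3 sets of cells.

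Of the 43 other pathway genes, 27 had enough UMIs, 0 were at least 2-fold higher in microglia-like cells of library 2 and 4 were lower, namely Tlr12, Tbk1, Tollip and Cyld. Each of these had only 2 or 3 UMIs in library 2, and all 4 intervals included equality. Tlr12, for example, had 6.39 CPM in library 2 against 15.4 CPM in library 1.

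The third comparison set monocyte-like cells of library 3 (83) against those of library 2 (44). Ly86 was the member past 2-fold, at 2.09-fold (1.74 to 2.53) higher in library 3. It was 1 of 4 members with enough UMIs, and 23.7% of 3312 genes differed by that much, 17.6% being higher and 6.16% lower. Tlr2 was 1.74-fold (1.19 to 2.63) higher, Cd14 1.45-fold (1.23 to 1.71) lower, and Myd88 1.60-fold (0.930 to 2.65) lower with an interval that included equality. The members' median log2 ratio was 0.13 and that of all genes 0.19. Microglia markers moved the same way as Ly86, with the sums of 739 and 3895 CPM given above, and the monocyte list summed to 15251 CPM in library 2 against 4940 CPM in library 3. The microglia markers were uneven over the monocyte-like cells of library 3, as the median and the highest cell given above show. The part of these markers was not tested. With only cells of at least 1000 genes the log2 ratio of Ly86 changed from 1.06 to 0.11. That of Tlr2 turned from 0.80 to -0.22 with no more than 5% mitochondrial UMIs, and that of Myd88 from -0.68 to 0.17 with cells named one by one. Of 16 other pathway genes tested, the chaperone Hsp90b1 (2.93-fold, 2.24 to 3.90) and Cd36 (2.52-fold, 1.11 to 7.08) were higher in library 3 and Ikbkb (0.329-fold, 0.230 to 0.473) was lower.

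The last comparison stayed within library 1 and set the stress and cytokine gene-led microglia-like cells (403) against the other ones (668). None of the 9 members measured differed by at least 2-fold, where 1.35% of 7023 genes did (1.18% higher, 0.171% lower). Tlr2 was 1.20-fold (1.00 to 1.43) higher in the stress and cytokine gene-led cells, Ly86 0.937-fold (0.899 to 0.977), Cd14 0.943-fold (0.862 to 1.03), Myd88 0.793-fold (0.615 to 1.02) and Tlr3 0.728-fold (0.508 to 1.04). At resolution 1.0 the stress and cytokine gene-led set shrank to 72 cells, and the log2 ratios changed from 0.26 to 0.84 for Tlr2, from -0.08 to 0.45 for Cd14 and from -0.34 to 0.39 for Myd88. The median depth of the 403 cells was 5088 UMIs against 2890 in the 668 others. In library 2 the same comparison held 2 of 3 members past 2-fold, against 12.2% of 755 genes (9.4% higher, 2.78% lower). Tlr2 was 6.88-fold (3.17 to 17.7) and Cd14 2.66-fold (1.91 to 3.78) higher, and Ly86 was 0.887-fold (0.759 to 1.04). Tlr2 reached the minimum of 50 UMIs only through the set where it was high, with 72 UMIs against 7, and the remaining members fell short of it. The 2 of 3 thus depends on that minimum and is not read as a result about the members. Of these 27 stress and cytokine gene-led cells, 4 held 50% of the 72 Tlr2 UMIs and 3 held 50% of the 179 Cd14 UMIs. The thinned share of Cd14 was lower in them than in the other cells, as given above. The difference between the libraries was not tested.

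Of 27 other pathway genes measured in library 1, 2 differed by at least 2-fold, both negative regulators. Nfkbia was 4.94-fold (4.65 to 5.26) higher in the stress and cytokine gene-led cells, at 2537 against 513 CPM, and the deubiquitinating enzyme Tnfaip3 4.46-fold (3.12 to 6.52), at 71.2 against 16 CPM. The other 25 stayed within 2-fold. In library 2 Nfkbia was 8.31-fold (6.11 to 11.6) higher.

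The genes whose levels ran most alike with a member over the 16 sets of class and library were named by Pearson's r of log2(CPM + 10), among 5987 genes with at least 200 UMIs. These sets share libraries and depth, so r is a description. Ly86 was closest to Aif1 (0.969), which encodes the macrophage protein Iba-1, and to its partner Cd180 (0.947). Tlr7 was closest to Slc11a1 (0.957), a metal transporter of phagosomes, and Creg1 (0.942), Tlr3 to Cadm1 (0.948) and Spint1 (0.929), and Tlr13 to Wdfy3 (0.923) and Hmox2 (0.901). Tlr2 was closest to the ferritin gene Fth1 (0.944) and the Fc receptor gene Fcgr2b (0.918), and Cd14 to Ms4a6d (0.937) and Amz1 (0.927). Myd88 had weaker neighbours, Prkag1 (0.849) and Slc25a5 (0.820). Tlr1, Tlr4 and Tlr9 had fewer than 200 UMIs and were not included.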

How the data were processed

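The labels' protocols describe Cd11b sorting after enzymatic digestion at 37 °C and speak of 4 samples handled together, 3 of them labelled here. The authors deposited 1 matrix of UMI counts for the series. Per the submitters' processing notes, Cell Ranger 2.0.1 and mm10 were used, and the rule that called barcodes cells is not given in the sources used here. Members, lists and comparisons were chosen with earlier results of these data known.

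Cells with at least 500 genes and at most 10% mitochondrial UMIs were kept (5 removed). Scrublet in scanpy 1.11.5 (expected rate 5%) marked 9 of 2144 cells, or 0.42%, a share below the expected rate, and these were removed. Doublets may remain. Clustering used log values per 10000 UMIs, the 2000 most variable genes, 30 unscaled principal components, 15 neighbours and the Leiden method (igraph 0.11.9, resolution 0.5). A marker passed when seen in a fraction of at least 0.3 of a cluster's cells at a CPM at least 2 times the median over clusters, and a name needed 3. This scoring and the unscaled components were settled after the clusters had been seen. Trbc2, Ighm, Igkc and Pclaf were not analysed here, and of the rows named Itgam that of the integrin's Ensembl identifier was used.

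All members are named. Of other pathway genes, up to 4 per direction with the largest folds of at least 2 and 50 UMIs over both sides were named, and for each member the 2 genes of highest r. Cd180 and Ly96 were named outside this rule as partners of members. A side at 0 was set to 3 counts. The computation was tested on simulated data. Alternatives covered cell filters, doublets, clustering, naming, summing, fold, UMI minimum and libraries, and 4 were added after seeing the data.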

Additional observations from a re-analysis of the deposited data

Results flagged for a closer look

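In sets of under 20 cells that entered none of the comparisons, 6 levels lay above the limit that a count of 0 allows. In library 1, the 13 neutrophil-like cells had 169 CPM of Tlr2 (10 UMIs), 539.7 CPM of Cd14 (32 UMIs) and 675 CPM of Ly86 (40 UMIs), against a limit of 50.6 CPM. The 13 NK-like cells of library 1 had 252 CPM of Ly86 (130 to 440, 12 UMIs, limit 63.0 CPM), above the 3.82 and 9.04 CPM of the NK-like cells of library 2 and 3. As a mean of per-cell CPM the library 1 value was 132. The 5 non-classical monocyte-like cells of library 1 had 438 CPM of Ly86 (200 to 831, limit 146 CPM), and the 3 migratory dendritic cell-like cells of library 3 had 177 CPM of Ly86 (48.1 to 452, limit 133 CPM).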

How the results depend on the processing

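No p-value could be lost, since the matrix is 1 sample, so the number of members past 2-fold was followed. For microglia-like against monocyte-like cells it was 1, and 4 with cells named one by one or with at least 1000 genes per cell, 5 at no more than 5% mitochondrial UMIs or a fold of 1.5, 3 with doublets kept or with means of per-cell CPM, and from 2 to 4 with a library left out. Tlr3 stayed higher in microglia-like cells in each of the 13 alternatives (log2 ratio 0.99 to 3.01), as did Ly86 (0.78 to 2.01). The fold of 1.5 and the run without a UMI minimum are among the 13 and cannot change a ratio. The 0.99 of Tlr3 came from library 2 alone, on 8 UMIs against 0 set to 3 counts, below the minimum of 50 UMIs. Tlr2 ranged from -1.14 to 0.97, Tlr4 from -0.10 to 2.61 and Cd14 from -1.10 to 0.22. For microglia-like cells of library 2 against library 1 the count was 2, and 4 at resolution 1.0, 0 with cells named one by one, 6 at a fold of 1.5, and 1 with doublets kept, with means of per-cell CPM, without the stress and cytokine gene-led cluster (Myd88) or without cells with UMIs of 3 or more neutrophil or monocyte markers (Tlr4). The Tlr2 log2 ratio of that comparison, 1.22, was -0.82 without the stress and cytokine gene-led cluster, on 38 and 668 cells. With doublets kept it was -0.80, on 38 and 523 cells instead of 65 and 1071. In that run 1 microglia-like cluster remained and the class held 562 cells instead of 1137, so its cells were not the same set. The part of the doublets themselves was not tested. Between library 2 and library 1, Cd14 ranged from -0.36 to 1.13 and Myd88 from -1.35 to -0.62. For monocyte-like cells of library 3 against library 2 the count was 1, and 0 at resolution 1.0, with the pathway genes kept in the clustering, with cells named one by one, at 1000 genes, at 5% mitochondrial UMIs and with means of per-cell CPM, 2 with no minimum of UMIs and 3 at a fold of 1.5. The count within library 1 was 0 in all alternatives run, although the stress and cytokine gene-led set held from 72 to 585 cells and Cd14 ranged from -0.28 to 0.45 and Myd88 from -0.34 to 0.39, and with doublets kept it could not be obtained, since 1 microglia-like cluster remained. No paired analysis was possible because no column is tied to a sample and no result comes from a test. Depth limits Tlr9, Tlr1 and Tlr4 most, and each group being 1 library limits all ratios.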
